A study of Mus musculus with 8 samples.

Results

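The clustered histone genes are the genes of the mouse histone gene clusters, taken here as every symbol that begins with Hist1h, Hist2h, Hist3h or Hist4h. They number 68 of the 23389 gene symbols listed for each of 8 RNA-seq libraries. By class, 6 encode the linker histone H1, 18 H2A, 19 H2B, 12 H3 and 13 H4. In the mm10 annotation (GENCODE M21), 54 lie on chromosome 13 (Hist1), 10 on chromosome 3 (Hist2), 3 on chromosome 11 (Hist3) and 1 on chromosome 6 (Hist4). The genes were taken by symbol, with no cutoff on their levels. The set itself was chosen with earlier results of these data known.

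The libraries fall into 4 groups of 2. ES are mouse embryonic stem cells of the D3 line carrying GFP, on the 129S2/SvPas background, as biological replicates. MEF are embryonic fibroblasts on the BALB/c background, also biological replicates. 3F+IL6 are induced pluripotent stem (iPS) clones made from fibroblasts with the 3 factors Oct4, Klf4 and Sox2 together with the cytokine IL6 at 10 ng/mL, and 4F are iPS clones made with 4 factors. Each iPS library is a separately derived clone on the BALB/c background, so 2 clones stand for each kind. Strain changes together with cell type in every comparison with ES, and the factor set changes together with IL6 between the kinds of clone. All libraries were made by oligo-dT selection of poly-A RNA, according to the labels.

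The core histones H2A, H2B, H3 and H4 form the nucleosome, around which DNA is wound, and H1 binds the DNA between nucleosomes. Most clustered genes are replication-dependent: their mRNAs rise in S phase, when new DNA has to be packed, and they end in a short stem-loop instead of a poly-A tail. The stem-loop is bound by SLBP, and U7 snRNP with its partners directs the cleavage just downstream. Some clustered genes also make mRNAs with a poly-A tail, by reading through to a poly-A signal, most of all in cells that have left the cycle. Oligo-dT beads bind a poly-A tail, so the level read for a replication-dependent histone mRNA depends on how much RNA without a tail comes through the selection. The level of other RNAs with no mRNA-type tail depends on the same thing. The summed RPKM of 3 of them was used as an index of it: Rn45s, the ribosomal RNA precursor, and Rpph1 and Rmrp, the RNA parts of ribonucleases P and MRP.

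The stem-loops are printed for some of the genes on which the results turn, all with a match to the motif given below. That motif fixes part of these bases, so the likeness among them was set by the search. Members without a match, such as Hist1h2bc and Hist2h3b, are not printed. Stem and loop are in capitals (6 bases of stem, 4 of loop, 6 of stem), with 5 bases on each side, written 5′ to 3′ on the strand of the gene, in mm10 from the GENCODE M21 transcripts.
Hist1h2bk (H2B, plus strand, chr13:22036295-22036320): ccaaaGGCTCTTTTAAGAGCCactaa
Hist1h3e (H3, minus strand, chr13:23561898-23561923): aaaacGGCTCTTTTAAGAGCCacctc
Hist1h4d (H4, plus strand, chr13:23581945-23581970): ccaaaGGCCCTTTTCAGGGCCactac
Hist2h2ac (H2A, minus strand, chr3:96220413-96220438): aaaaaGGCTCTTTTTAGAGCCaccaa
Hist1h2bh (H2B, minus strand, chr13:23542923-23542948): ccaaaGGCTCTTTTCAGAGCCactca
Hist1h1c (H1, plus strand, chr13:23739507-23739532): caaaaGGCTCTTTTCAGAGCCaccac
Hist1h4i (H4, minus strand, chr13:22040961-22040986): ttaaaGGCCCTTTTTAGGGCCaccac
Hist3h2a (H2A, plus strand, chr11:58955167-58955192): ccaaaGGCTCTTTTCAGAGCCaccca
Hist3h2ba (H2B, plus strand, chr11:58949344-58949369): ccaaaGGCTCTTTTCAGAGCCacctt

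The motif searched reads GG, any 2 bases, CTT, any 3 bases, AG, any 2 bases that pair with the first 2, and CC. It was looked for on the sense strand of the transcript models only. A match was found in 46 of the 68 genes (67.6%) and in 26 of 21810 other protein-coding genes (0.119%). In 26 members the 16 bases were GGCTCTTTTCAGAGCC, in 7 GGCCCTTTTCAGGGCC and in 6 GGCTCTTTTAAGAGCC. Of the 22 members without a match, 11 had a model that holds only the coding sequence, so the motif could not have been found there. The models end within 60 bases of the stem-loop in 22 members, and run on further in the other 24.

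A poly-A signal (AATAAA or ATTAAA, sense strand, in the last 40 bases of a model) was found in 17 members, 14 of which have the stem-loop too. The last 30 bases of such models, or for Hist3h2a the 30 that hold the signal, are printed with the signal in capitals for 4 members that were called in comparisons between groups.
Hist1h1c (chr13:23740338-23740367): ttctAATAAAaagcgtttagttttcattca
Hist1h4i (chr13:22040636-22040665): tctgtttacATTAAAagtattctatgctaa
Hist3h2a (chr11:58956795-58956824): ccAATAAAataagagtacgtgtataacata
Hist3h2ba (chr11:58949504-58949533): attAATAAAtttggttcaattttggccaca
In Hist1h1c this end lies 840 bases beyond the stem-loop, and in Hist3h2a the model runs on for 1643 bases. Hist1h2bc, the member with the highest mean level, has neither motif in its model. A match is a description of the model and does not show which end was used in these cells. A signal beyond the end of a model could not be found, as for the 11 models with only the coding sequence.

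The levels of the members were low. The highest value was 23.0 RPKM (a read count divided by the length of the gene model and by library depth), for Hist1h1c in MEF 2. Of the 544 values, 118 were 0. 2 genes were at 0 in all libraries (Hist1h2ap and Hist3h2bb-ps) and 30 were above 0 in all. Depth, estimated from the step between low values, was 11700000 to 18000000 reads a library, and RPKM 1 in a gene model of 532 bases is then about 6.25 to 9.59 reads. Pluripotency markers were high in ES and both kinds of clone (10 of 10 called higher than in MEF in each), and summed fibroblast markers were 2623 to 2638 RPKM in MEF, 139.9 to 277 in the clones and 5.85 to 5.87 in ES. Summed haematopoietic markers were 97.3 to 124 RPKM in the pluripotent libraries and 7.29 to 7.30 in MEF, and summed endothelial markers were 34.4 to 49.6 and 4.40. Of 6 haematopoietic markers 3 were at 0 in ES 1 and 2 in ES 2, and of 6 endothelial ones 1 and 2. In each of the clones 0 of the 6 haematopoietic markers and 0 or 1 of the 6 endothelial ones were at 0. Of 4 haematopoietic markers tested, 3 were called higher than in ES in each kind of clone (33.1% and 33.7% of all genes). In 3F+IL6 1 was called lower, and in 4F 0. The sums alone do not show whether such cells were present, which was not tested. The libraries of ES and of MEF were nearly the same over all genes: the median absolute difference between them was 0.06 and 0.05 log2(RPKM + 1), against 0.18 in 3F+IL6 and 0.10 in 4F.

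Against that background the index split the libraries within ES and within MEF. It was 89.8 RPKM in ES 1 and 704 in ES 2, a ratio of 7.84, and 46.5 in MEF 1 and 267 in MEF 2, a ratio of 5.76. In the iPS clones it followed the kind of clone: 64.9 and 60.8 RPKM in 3F+IL6, 610.4 and 596 in 4F. Each of the 3 RNAs was higher in library 2 of ES and of MEF. Rmrp was 25.5 and 283 RPKM in ES, 17.4 and 7.58 in 3F+IL6, 262 and 249.6 in 4F, and 4.12 and 90.4 in MEF.

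The summed level of the 68 histone genes was 56.7 RPKM in ES 1 and 288 in ES 2, 94.3 and 103 in 3F+IL6, 279 and 244 in 4F, and 98.6 and 141 in MEF. The 3 libraries with the highest index were the 3 with the highest histone sum, and MEF 2, the fourth by index, was also the fourth by histone sum. The order did not hold among the other 4: ES 1, the fifth by index, had the lowest histone sum, and MEF 1, the lowest by index, lay above ES 1 and 3F+IL6 clone 1. The 2 libraries of ES differed 5.07-fold and those of MEF 1.43-fold, in the direction of the index, while the ratios of clone 2 to clone 1 were 1.09 in 3F+IL6 and 0.875 in 4F. With 2 libraries a group, no permutation test of 1 group against another can reach 0.05 for these sums. The order over all 8 libraries was not tested.

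**Figure D1:**
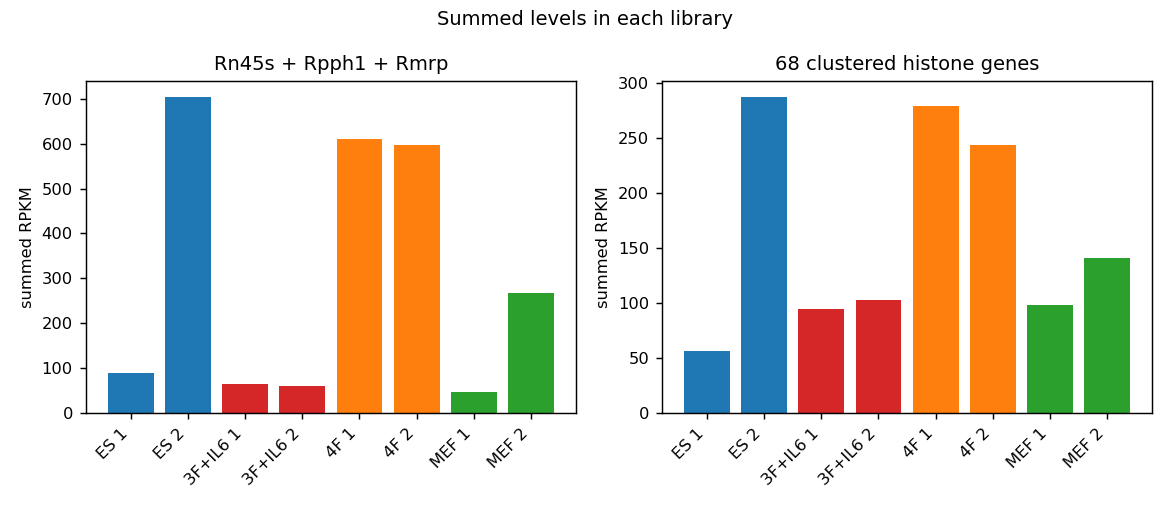
Summed RPKM of Rn45s, Rpph1 and Rmrp (left) and of the 68 clustered histone genes (right), 1 bar for each of the 8 libraries, coloured by group. ES 2 and both 4F libraries are the highest in both panels, with 596 to 704 RPKM on the left and 244 to 288 on the right.

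Between the 2 ES libraries, 58 of the 68 members were higher in library 2, 3 were lower and 7 were equal, all of them at 0. Over all symbols, 38.5% were higher. In MEF 45 were higher and 15 lower (34.8% of all symbols higher), whereas the clones were even: 30 and 28 in 3F+IL6 (46.6% of all symbols higher in clone 2) and 30 and 31 in 4F (39.3%).

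Each class took part, to a different extent. From ES 1 to ES 2 the summed H4 genes went from 9.58 to 79.2 RPKM, a ratio of 8.26, and the summed H3 genes from 10.7 to 64.4, a ratio of 6.00. The ratios were 5.67 for H1, 4.74 for H2A and 3.42 for H2B. In MEF the same order held at the top, 2.36 for H4 and 1.92 for H3, with 1.59 for H2A, 1.23 for H2B and 1.13 for H1. The H1 and H2B sums thus differed least between the MEF libraries. For H1 this rests on Hist1h1c, which was 22.4 of 23.3 RPKM in MEF 1 and 23.0 of 26.3 in MEF 2. Hist1h1a, at 0.0783 and 0.843 RPKM in MEF, and Hist1h1b, at 0.175 and 1.29, differed by more in proportion.

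A filter on low values, RPKM of at least 1 in at least 2 libraries, kept 50 members (4 H1, 11 H2A, 13 H2B, 10 H3 and 12 H4) among 13200 genes. It leans on the libraries with a high index: 49 of the 50 would have passed on the 4 libraries with the highest index alone and 30 on the 4 with the lowest. Counts over these 50 describe the genes that passed and not all 68.

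By at least 1 unit of log2(RPKM + 1), 38 of the 50 members were higher in ES 2 than in ES 1, against 0.538% of all tested genes, and 1 was lower, against 0.197%. Their median difference was 1.69, with 0.00 over all genes. The 38 made up 53.5% of the 71 genes that were this much higher in ES 2. Of the other 33, 3 were the index RNAs, 22 were on a list of other RNAs without a poly-A tail (small nuclear, small nucleolar and similar) and 8 were neither. That list did not move one way: 13 of its members were lower in ES 2 by as much. Of its 81 tested members, 14 were at least 1 unit higher and 14 lower in MEF 2, with a median of 0. In clone 2 the counts were 16 and 14 in 3F+IL6, and 16 and 8 in 4F, where the index was nearly even.

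In MEF 13 members were at least 1 unit higher in library 2 (0.341% of all tested genes) and 3 were lower (0.197%), with a median of 0.58. They were 28.9% of the 45 genes this much higher in MEF 2. In 3F+IL6 5 members were higher (0.955%) and 5 lower (0.636%), and in 4F 4 were higher (0.364%) and 4 lower (0.167%). The medians there were 0.00 and −0.09. There is 1 library on each side of these differences, so no test was made.

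The largest difference in ES was that of Hist1h2bk, an H2B gene, which was at 0 RPKM in ES 1 and at 11.2 in ES 2. It was at 0.0548 and 0 in 3F+IL6, 15.9 and 3.37 in 4F, and 0.176 and 4.04 in MEF. All 4 libraries with a high index were thus above all 4 with a low one. Hist1h4c, an H4 gene, was at 0 and 9.64 in ES, 0.847 and 0 in 3F+IL6, 5.50 and 2.18 in 4F, and 0 and 1.49 in MEF, and split the same way.

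Hist1h3e, an H3 gene, was at 1.08 and 16.0 RPKM in ES, 3.49 and 2.22 in 3F+IL6, 10.8 and 11.1 in 4F, and 0.490 and 2.03 in MEF. Here MEF 2 lay within the range of the low-index libraries. Hist1h3g, also H3, was at 0 and 6.94 in ES, 1.74 and 1.40 in 3F+IL6, 2.46 and 5.23 in 4F, and 0.860 and 2.95 in MEF.

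In MEF the largest difference was that of the H2B gene Hist1h2bl, at 0.176 and 8.35 RPKM, followed by the H2A gene Hist2h2ac, at 0 and 5.75. Hist1h2bl was at 0 and 3.85 in ES, 0.110 and 0 in 3F+IL6, and 3.14 and 14.8 in 4F, so the 4F clones, even in the index, were not even in it. Hist2h2ac was at 1.50 and 7.43 in ES, 0.480 and 2.75 in 3F+IL6, and 6.84 and 7.16 in 4F.

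The genes that were at least 1 unit higher in both ES 2 and MEF 2 numbered 10: Hist1h2ao, Hist2h2ac, Hist1h2bj, Hist1h2bk, Hist1h2bl, Hist2h2bb, Hist1h3e, Hist1h3g, Hist1h4c and Hist1h4m. None of the 10 has a poly-A signal at the end of its model, but a signal beyond that end could not be found. Hist1h2bl and Hist2h2bb have only the coding sequence, and the model of Hist2h2ac ends 57 bases after the stem-loop. Those of Hist1h2ao, Hist1h2bj, Hist1h2bk, Hist1h3g and Hist1h4m end sooner after theirs. The models of Hist1h3e and Hist1h4c run on for 369 and 454 bases. Another 28 members were at least 1 unit higher in ES 2 only and 3 in MEF 2 only. The difference in ES and that in MEF went together loosely across the 50 genes (Pearson r = 0.306, Spearman rho = 0.378, as a description across genes that share both libraries and part of their sequence).

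The members that differed by less than 1 unit in both pairs were 8: Hist1h2ae, Hist1h2bc, Hist1h4i, Hist2h2aa2, Hist2h3c1, Hist3h2a, Hist3h2ba and Hist4h4. Of these, 6 have a poly-A signal at the end of the model, against 12 of all 50. The 1 added before the log narrows differences between low values, and these genes except Hist1h2bc were low in ES. Each was higher in ES 2, with Hist2h3c1 at 0.0174 and 0.311 RPKM, Hist1h2ae at 0.506 and 1.64 and Hist1h2bc at 7.97 and 9.53. A difference under 1 unit is thus not the same as a level value. In ES 5 of the 12 members with the signal were at least 1 unit higher in library 2, with a median of 0.79. Among the 38 with none found, whose models may end before one, 33 were, with a median of 1.75. In MEF the counts were 1 of 12 and 12 of 38, with medians of 0.38 and 0.71. Not all genes with the signal were under 1 unit apart. The H4 genes Hist1h4h and Hist1h4a, which have it, were at 0.680 and 9.03 RPKM and at 1.04 and 9.83 in ES. The H2B gene Hist1h2bp, which has it too, went against the rest, at 2.22 in ES 1 and 0 in ES 2.

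Hist1h1c and Hist1h2bc held the 2 highest mean levels, 10.3 and 13.7 RPKM over the 8 libraries. Together they were 15.9% of the histone sum in ES 1 and 4.67% in ES 2, 20.9% and 23.7% in 3F+IL6, 9.24% and 8.55% in 4F, and 40.1% and 28.1% in MEF. Without them the histone sums of the libraries differed 5.75-fold in ES and 1.72-fold in MEF. Their own sum differed 1.49-fold and 1.01-fold.

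**Figure D2:**
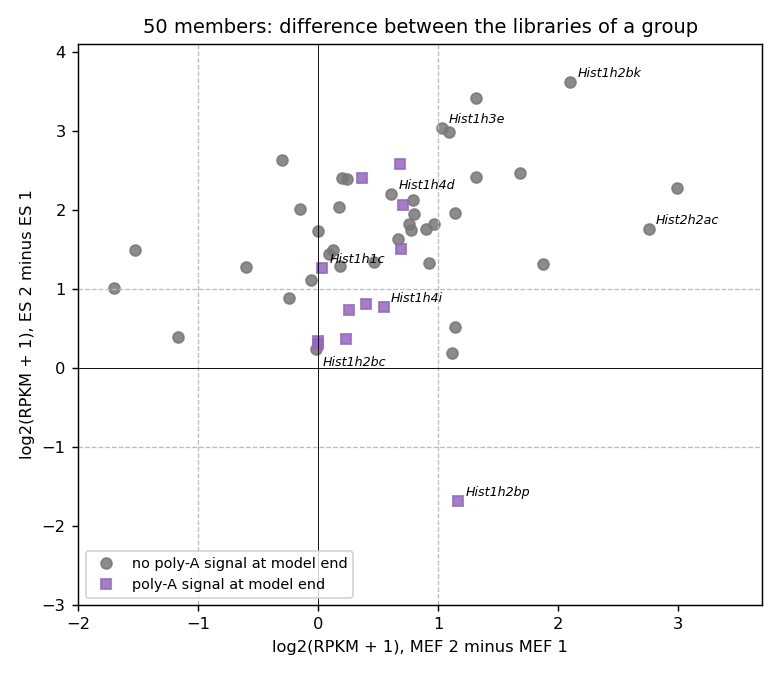
Difference between the libraries of a group for the 50 members that passed the filter, library 2 minus library 1 in log2(RPKM + 1), in MEF (x axis) and ES (y axis); squares are genes with a poly-A signal at the end of the model, circles those without, and dashed lines mark 1 unit. 38 points lie at or above 1 on the y axis and 13 at or beyond 1 on the x axis, and Hist1h2bp is the 1 point below −1 on the y axis.

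**Figure D3:**
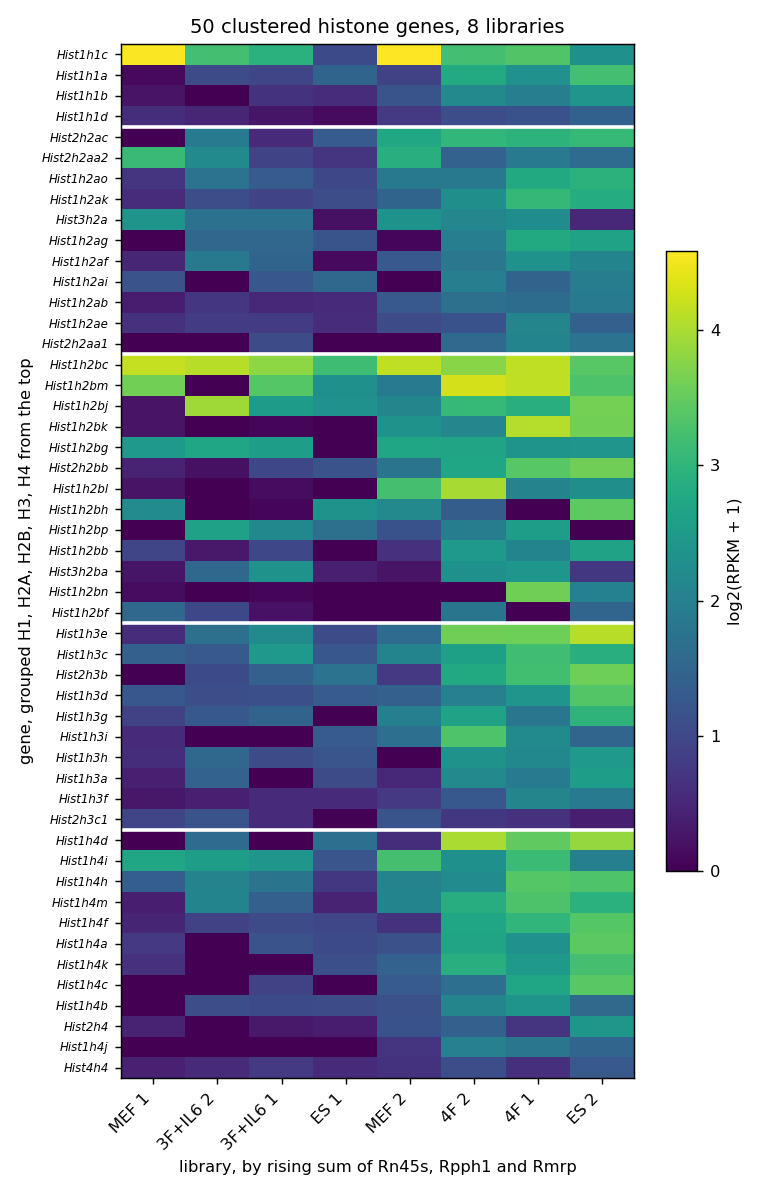
Level of the 50 members in log2(RPKM + 1), 1 row a gene within the classes H1 to H4, with the 8 libraries ordered from left to right by the index (46.5 RPKM in MEF 1 to 704 in ES 2). Most rows are brightest in the 3 columns on the right, while Hist1h1c and Hist1h2bc are bright in most columns.

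The 6 comparisons between groups were tested with limma on log2(RPKM + 1) over all 13200 genes, and a gene was called at a Benjamini-Hochberg adjusted p under 0.05. Each group holds 2 libraries, so the p-values measure the spread between those libraries. For the members that spread includes the split within ES and within MEF, and 1 estimate of the spread serves all groups. For each comparison with ES or MEF a value with the libraries nearest in index is given beside the main one, with the lone library assumed to vary like the other groups.

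3F+IL6 against 4F asks whether the clones made with 3 factors and IL6 differ from those made with 4 factors. Only 1 of the 50 members was called, in the lower direction, against 0.568% of all genes in that direction and 1.34% in either. The H3 gene Hist1h3i had a value of 0 in each 3F+IL6 clone, and of 3.53 and 8.99 RPKM in the 4F clones. In ES it was at 1.48 and 1.82, and in MEF at 0.475 and 2.18. limma gave a log2 difference of −2.75 (SE 0.44, adjusted p = 0.045), a size that depends on the pseudocount of 1 because 1 group is at 0. The call was lost in limma without either 4F clone (adjusted p = 0.16 for each), without either ES library (0.12), without either MEF library (0.086) and with the index as a covariate (0.78). The fit with the index as a covariate cannot separate the index from the kind of clone, for the reason given below. Hist1h3i shares 87.6% of its 50-base windows with other genes.

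Most other members had the same sign without passing the test. Of the 50, 46 had a lower mean log2 value in 3F+IL6, with a median difference over the 50 of −1.09 against 0.03 for all genes, and 17 had an unadjusted p under 0.05. For 36 both 3F+IL6 clones lay below both 4F clones, against 20.0% of all tested genes, and for 0 both lay above, against 26.7%. Over all 68 members these counts were 40 and 1, against 14.7% and 18.8% of all symbols. The median was −1.54 for H4, −1.15 for H1, −1.14 for H3, −0.86 for H2A and −0.64 for H2B. It was −0.43 for the 12 genes with a poly-A signal and −1.30 for the 38 without.

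The index differed in the same direction by more, with 60.8 to 64.9 RPKM in 3F+IL6 and 596 to 610.4 in 4F, and no library of either kind near the other. The means were 62.8 and 603 RPKM for the index and 98.5 and 261 for the histone sum. Of 81 tested genes on the list of other RNAs without a poly-A tail, limma called 5 lower in 3F+IL6 and 0 higher, with a median of −0.80. With the index as a covariate the median difference of the members was −0.00 and limma called 0 of 50, with 6 at an unadjusted p under 0.05. The kind of clone and the index cannot be told apart here, as neither kind has a library at the other's index. Within each kind the index was nearly even, so the slope in the covariate fit rests almost wholly on the ES and MEF pairs. The loss of calls in that fit therefore does not show how much of the difference goes with the index. Without 3F+IL6 clone 1, limma called 7 members lower.

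The comparison of 3F+IL6 with ES gave 8 calls, 5 higher and 3 lower, against 33.1% and 30.3% of all genes (63.4% in either direction). The median difference of the members was −0.62 and that of all genes 0.01. Higher in the clones were Hist1h1c (H1), Hist1h2bc and Hist3h2ba (H2B), Hist3h2a (H2A) and Hist2h3c1 (H3), and lower were Hist1h2bh (H2B), Hist1h3i (H3) and Hist1h4k (H4).

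Hist3h2a was at 0.148 and 0.420 RPKM in ES, 2.32 and 2.30 in 3F+IL6, 3.67 and 3.33 in 4F, and 4.16 and 4.15 in MEF. It was therefore lowest in both ES libraries and highest in both MEF libraries, with no overlap between any 2 groups. Its log2 difference in 3F+IL6 against ES was 1.37 (SE 0.12, adjusted p = 9.07e-05, limma) and in 4F against ES 1.82 (SE 0.12, adjusted p = 2.97e-05). Of its 50-base windows, 31.5% are found in transcripts of Trim17, which overlaps it on chromosome 11, so part of the reads could be of that gene.

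Hist3h2ba, its neighbour on chromosome 11, was at 0.325 and 0.683 RPKM in ES, 4.07 and 1.91 in 3F+IL6, 4.33 and 3.93 in 4F, and 0.191 and 0.187 in MEF. Both kinds of clone were above both ES and MEF in all libraries. It was called higher by limma in 3F+IL6 against ES (log2 difference 1.36, SE 0.25, adjusted p = 0.00267) and against MEF (1.69, SE 0.25, adjusted p = 0.000471), and in 4F against ES (1.78) and MEF (2.11). Each of these calls of Hist3h2a and Hist3h2ba was kept in every alternative in which the gene was tested.

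Hist1h2bh was at 4.06 and 9.91 RPKM in ES, 0.0548 and 0 in 3F+IL6, 0 and 1.56 in 4F, and 3.62 and 3.44 in MEF. All 4 iPS clones lay below all ES and MEF libraries. limma called it lower in 3F+IL6 against ES (log2 difference −2.85, SE 0.48, adjusted p = 0.00183), in 3F+IL6 against MEF (−2.14, adjusted p = 0.00424), in 4F against ES (−2.21, adjusted p = 0.00518) and in 4F against MEF (−1.50, adjusted p = 0.021). The last call was lost without 4F clone 1 (adjusted p = 0.12), without MEF 1 (0.073) and without MEF 2 (0.064). The GENCODE model of Hist1h2bh shares 18.8% of its windows with other genes, but the models behind the values are not given. In 3F+IL6 clone 1 it had the same value, 0.0548 RPKM, as Hist1h2bk and Hist1h2bn, whose GENCODE models differ in length from its own. How far its reads are shared is therefore uncertain.

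**Figure D4:**
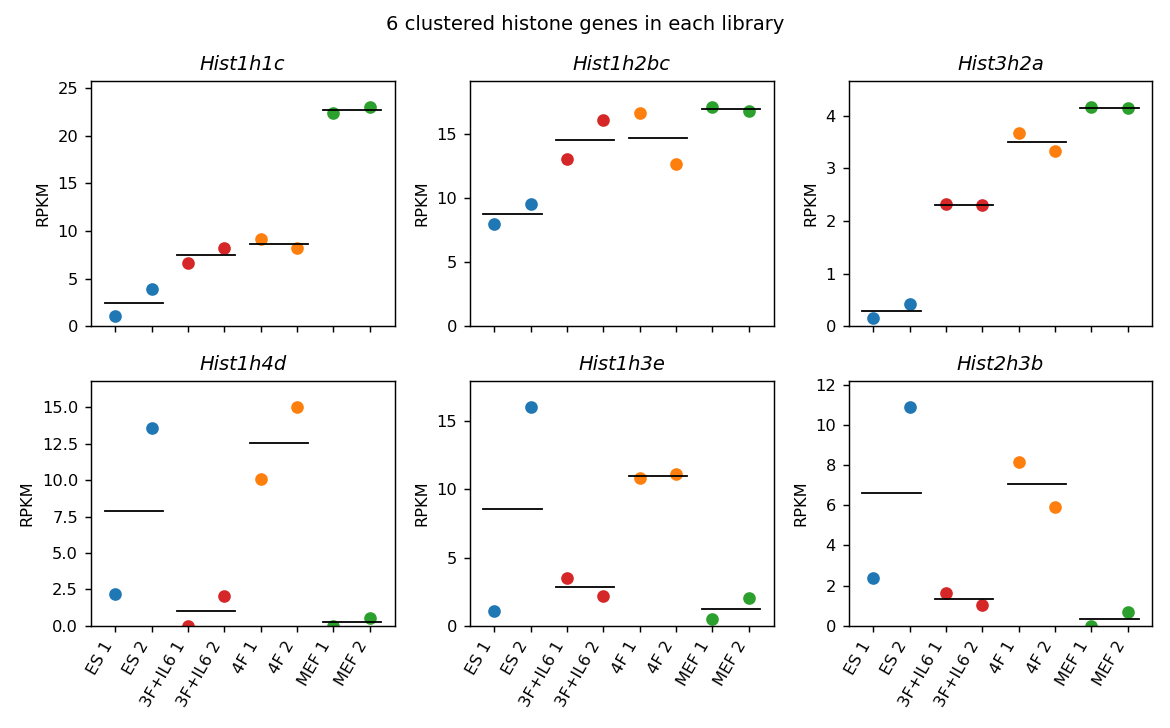
RPKM of 6 clustered histone genes in each of the 8 libraries (points, coloured by group), with a line at the mean of each group of 2. Hist1h1c, Hist1h2bc and Hist3h2a (top) are lowest in both ES libraries and nearly equal in the MEF libraries. Hist1h4d, Hist1h3e and Hist2h3b (bottom) are higher in ES 2 than in ES 1, as in 13.6 against 2.17 RPKM for Hist1h4d. The top genes are higher in ES 2 too, with 3.91 against 1.05 RPKM for Hist1h1c and 9.53 against 7.97 for Hist1h2bc.

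The calls of 3F+IL6 against ES depended on which ES library stood for the group. Against ES 1 alone, whose index of 89.8 RPKM is near that of the clones, limma called 8 of 48 members higher and 2 lower (26.6% and 22.2% of all genes), with a median of 0.15. Against ES 2 alone it called 4 of 50 higher and 24 lower (26.4% and 22.2% of all genes), with a median of −1.42. Higher against both ES libraries were Hist1h1c (log2 difference 2.04 against ES 1 and 0.78 against ES 2), Hist3h2a (1.53 and 1.22) and Hist3h2ba (1.54 and 1.19), and Hist1h2bh was lower against both (−2.30 and −3.41).

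In 4F against ES limma called 6 members higher and 1 lower, against 33.7% and 33.5% of all genes (67.2% in either direction), with a median of 0.68 over the members. The higher ones were Hist1h1c, Hist1h2bc, Hist1h3i, Hist1h4i, Hist3h2a and Hist3h2ba, and the lower one was Hist1h2bh. Against ES 2 alone, whose index of 704 RPKM is near that of the 4F clones, 5 of 50 were called higher and 3 lower (27.7% and 25.9% of all genes), with a median of −0.23. Against ES 1 alone, 32 of 48 were called higher and 1 lower (28.0% and 25.8%), with a median of 1.50. Hist1h1c (log2 difference 0.98 against ES 2 and 2.24 against ES 1), Hist3h2a (1.66 and 1.97), Hist3h2ba (1.61 and 1.95), Hist1h2bc (0.56 and 0.79) and Hist1h2bh (−2.77 and −1.66) were called in the same direction both times.

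Thus, with the ES library nearest in index, both kinds of clone were higher than ES in Hist1h1c, Hist1h2bc, Hist3h2a and Hist3h2ba and lower in Hist1h2bh, and the median member lay within 0.23 log2 units of 0. Each of these values rests on a single ES library. Fibroblast markers also differ between these groups: all 10 were higher in each of the 4 clones than in each ES library, with Col1a1 at 47.0 to 71.6 RPKM in the clones, 1.59 and 1.66 in ES and 1243 and 1232 in MEF. Their part in the levels of Hist1h1c, Hist1h2bc and Hist3h2a, which were called higher in MEF than in ES, was not tested.

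ES against MEF gave 5 members higher and 6 lower, against 49.7% and 32.0% of all genes (81.7% in either direction), with a median of 0.56 over the members and 0.27 over all genes. The lower ones were Hist1h1c, Hist1h2bc, Hist1h4i, Hist2h2aa2, Hist2h3c1 and Hist3h2a, 4 of which have a poly-A signal at the end of the model. The higher ones were Hist1h1a, Hist1h2ag, Hist1h3h, Hist1h4d and Hist2h3b. None of these has one in its model, which for Hist1h3h holds only the coding sequence. Of all 50 members tested, 12 have a signal and 38 have none found.

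Hist1h1c, which encodes an H1 linker histone and is among the clustered genes known to make poly-A mRNA, was at 1.05 and 3.91 RPKM in ES, 6.65 and 8.25 in 3F+IL6, 9.13 and 8.25 in 4F, and 22.4 and 23.0 in MEF. ES lay below the clones and the clones below MEF in every library. The difference of ES against MEF was −2.90 (SE 0.35, adjusted p = 0.00017, limma), that of 3F+IL6 against MEF −1.49 (SE 0.35, adjusted p = 0.00571) and that of 4F against MEF −1.29 (SE 0.35, adjusted p = 0.011). The last was lost without 4F clone 2 (adjusted p = 0.059). Between the kinds of clone it was not called.

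Hist1h2bc, an H2B gene also known for poly-A mRNA, was at 7.97 and 9.53 RPKM in ES, 13.0 and 16.1 in 3F+IL6, 16.6 and 12.6 in 4F, and 17.1 and 16.8 in MEF. Both ES libraries were below all others, and the highest clone lay just below MEF. Its log2 difference was −0.88 in ES against MEF (SE 0.15, adjusted p = 0.00115, limma), 0.67 in 3F+IL6 against ES (SE 0.15, adjusted p = 0.00727) and 0.67 in 4F against ES (SE 0.15, adjusted p = 0.00648). Without ES 1 the call in 3F+IL6 was lost (adjusted p = 0.052).

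Hist2h3b, an H3 gene, was at 2.37 and 10.9 RPKM in ES, 1.64 and 1.04 in 3F+IL6, 8.16 and 5.93 in 4F, and 0 and 0.686 in MEF. It was higher than MEF in ES (log2 difference 2.29, SE 0.555, adjusted p = 0.00642, limma) and in 4F (2.62, SE 0.555, adjusted p = 0.00321). All its windows are shared with another annotated gene, on the other strand among them, so its level is uncertain. Hist1h4d, an H4 gene with 10.2% of its windows shared, was at 2.17 and 13.6 in ES, 0 and 2.03 in 3F+IL6, 10.1 and 15.0 in 4F, and 0 and 0.525 in MEF. Its call in ES against MEF (2.46, SE 0.77, adjusted p = 0.0194) was lost without ES 2 (adjusted p = 0.099) and without MEF 1 (0.088).

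With ES 1 and MEF 1 alone, at 89.8 and 46.5 RPKM of the index, limma called 6 of 46 members higher in ES and 6 lower (40.1% and 22.3% of all genes), with a median of 0.14. With ES 2 and MEF 2 alone, at 704 and 267, it called 20 of 50 higher and 5 lower (39.8% and 22.3%), with a median of 1.24. Without ES 1 only, it called 32. Hist1h1c, Hist1h2bc, Hist1h4i and Hist3h2a were lower in ES and Hist1h1a, Hist1h2ag and Hist2h3b higher in both of the first 2 settings, which were added after the data were seen.

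In 3F+IL6 against MEF 4 members were called higher and 5 lower (49.4% and 32.6% of all genes, 82.1% in either direction), with a median of −0.07. Higher were Hist1h2ag (H2A), and Hist1h2bj, Hist1h2bp and Hist3h2ba (H2B). Lower were Hist1h1c, Hist1h2bh, Hist1h3i, Hist2h2aa2 and Hist3h2a. Against MEF 1 alone, at 46.5 RPKM of the index, 4 of 49 were called higher and 4 lower (47.5% and 26.1% of all genes), and against MEF 2 alone 1 of 50 higher and 5 lower (47.3% and 25.9%). Without 3F+IL6 clone 2 the count was 5.

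Hist1h2bj was at 4.70 and 14.3 RPKM in 3F+IL6 and 0.176 and 3.31 in MEF, and its call (log2 difference 2.05, SE 0.73, adjusted p = 0.0329, limma) was lost without MEF 1 (adjusted p = 0.19) and without 3F+IL6 clone 2 (0.16). The H2A gene Hist2h2aa2 was at 7.66 and 6.30 RPKM in MEF, above the 0.636 to 3.51 of all other libraries. All its windows are shared with other annotated genes, an antisense gene among them. It was called lower in 3F+IL6 (log2 difference −1.43, adjusted p = 0.0181), 4F (−1.31, adjusted p = 0.0254) and ES (−1.84, adjusted p = 0.00592) against MEF in limma. The first call was lost without MEF 1 (adjusted p = 0.078) and without 3F+IL6 clone 1 (0.076), and the second without either MEF library (0.10 and 0.058) and without 4F clone 2 (0.13).

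4F against MEF had the most calls, 17 higher and 3 lower (49.2% and 34.4% of all genes, 83.6% in either direction), with a median of 1.46 over the members and 0.25 over all genes. For 35 both 4F clones were above both MEF libraries (54.5% of all tested genes) and for 6 both were below (39.2%). The higher genes were 1 H1 gene, 3 of H2A, 2 of H2B, 6 of H3 and 5 of H4, led by Hist1h4d (log2 difference 3.43, SE 0.77, adjusted p = 0.00412) and Hist2h3b. Of the 17, 14 have no poly-A signal at the end of the model, a share near that of all members tested (38 of 50). By class, 14 of the 38 without a signal and 3 of the 12 with one were called higher.

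The index was also higher in 4F, 596 to 610.4 against 46.5 and 267 RPKM. Against MEF 2 alone, the nearer library, limma called 7 of 50 members higher and 1 lower (47.2% and 28.0% of all genes), with a median of 0.88. Against MEF 1 alone it called 21 of 49 higher and 1 lower (47.4% and 28.2%). With the index as a covariate 7 were higher and 3 lower, with a median of 0.16. The count was 33 without ES 1 and without ES 2, 10 without 4F clone 1 and 13 without 4F clone 2. Neither MEF library is as high in the index as 4F, so its part in the remaining difference was not tested.

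**Figure D5:**
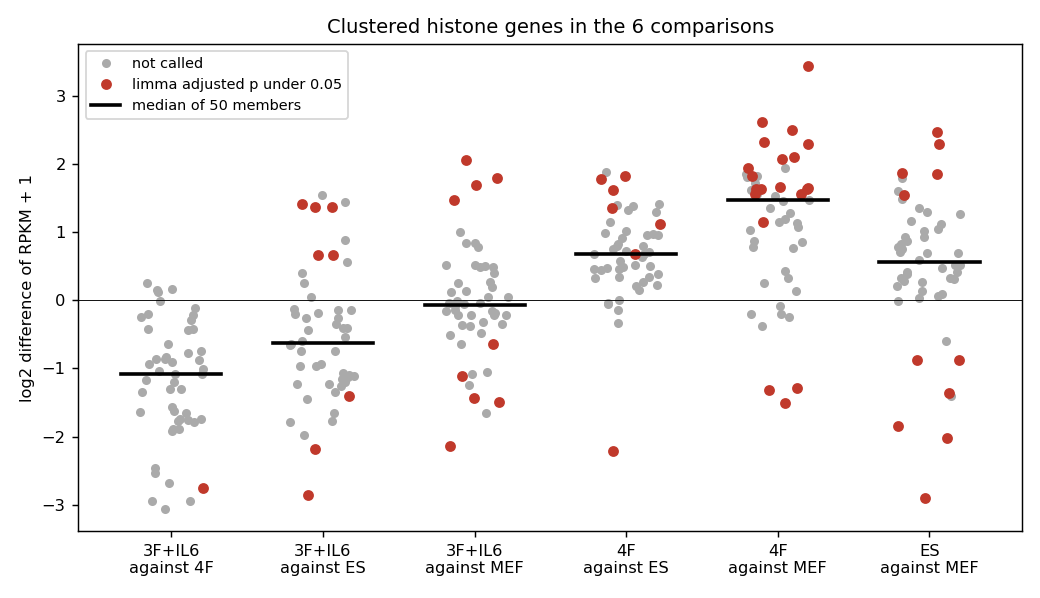
Log2 difference of RPKM + 1 for the 50 members that passed the filter in each of the 6 comparisons between groups, first group minus second; red points are called by limma at an adjusted p under 0.05, and the line is the median of the members. The medians run from −1.09 in 3F+IL6 against 4F to 1.46 in 4F against MEF.

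Genes of histone biology and of S phase outside the clustered set were steady within the pairs, like most genes tested. They were 20 genes of histone mRNA 3′ processing and turnover, 11 histone variants, 11 histone chaperones and 25 S-phase genes. None was 1 log2 unit apart between the libraries of any group. Of all tested genes, 0.167% to 0.955% were that far apart in each direction and group. The count of 0 is near that share, so it is not a trait of these lists. Summed RPKM of the S-phase genes was 2586 and 2572 in ES, 2969 and 2811 in 3F+IL6, 2930 and 2934 in 4F, and 872 and 875 in MEF. Slbp, whose protein binds the stem-loop, was at 78.7 and 75.2 in ES, 91.9 and 92.0 in 3F+IL6, 83.9 and 89.8 in 4F, and 33.4 and 32.4 in MEF.

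Between groups these lists separated MEF from the pluripotent cells. Of the 25 S-phase genes, 23 were called higher in 3F+IL6 and in 4F than in MEF, and 21 in ES, with medians of 1.53, 1.62 and 1.61 log2 units. Of all genes, 49.4%, 49.2% and 49.7% were called higher in these comparisons, which the shares of the other lists can be read against. Of the 20 processing genes, 13, 12 and 16 were higher and 3 were lower each time. Of the 11 chaperones, 9, 8 and 10 were higher, and of the 11 variants, 7, 6 and 8. Slbp rose by 1.46 log2 units in 3F+IL6 (SE 0.05, adjusted p = 4.25e-07, limma), 1.37 in 4F and 1.20 in ES against MEF. Between 3F+IL6 and 4F none of these genes was called by limma at an adjusted p under 0.05, and 2, 3, 2 and 2 of them had an unadjusted p under 0.05 in processing, variants, chaperones and S phase. The medians were 0.05, 0.05, 0.14 and −0.02 in the same order.

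Of a list of 12 clustered genes known from mouse or human to make poly-A mRNA, 11 were in the tables and 9 passed the filter. limma called 0 of the 9 in 3F+IL6 against 4F, with 2 at an unadjusted p under 0.05 and a median of −0.42. In each kind of clone against ES 4 of them were higher and none lower, with medians of 0.40 and 0.95 and 33.1% and 33.7% of all genes called higher, and in ES against MEF none was higher and 4 were lower, with a median of 0.33 and 32.0% of all genes called lower.

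Single members cannot be read as cleanly as the sums. Of the 68 genes, 64 share at least 1 window of 50 bases, the read length, with another annotated gene, and 35 share at least 50% of their windows. The median share was 54.5%, and the 4 genes with none were Hist1h1a, Hist1h1b, Hist1h1t and Hist2h2be. Hist1h2bq and Hist1h2br had the same value in every library. In 3F+IL6 clone 1 and in MEF 1, 5 members had a value above 0 equal to that of another member. The shares of windows come from GENCODE models, which may not be those behind the values. How reads that match several genes were assigned is not given in the sources used here. Hist1h1a, an H1 gene free of this limit, was at 1.77 and 8.29 RPKM in ES, 0.936 and 1.08 in 3F+IL6, 4.01 and 5.99 in 4F, and 0.0783 and 0.843 in MEF. Hist1h1b, the other H1 gene with no shared window that passed the filter, was at 0.496 and 4.28, 0.583 and 0, 2.91 and 3.48, and 0.175 and 1.29 in the same order, so both were higher in library 2 of ES and of MEF, which has the higher index.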

How the data were processed

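RNA was measured in 8 libraries, 2 in each of 4 groups. Per the labels' protocols, total RNA was extracted with a silica-column kit, poly-A RNA was selected on oligo-dT beads, and TruSeq libraries were read at 50 bases. The genome build is mm10, per the submitters' processing notes. Not given in the sources used here are the aligner, the counter, the gene models and the treatment of reads that match several genes. The deposited tables list 1 value a symbol with no unit named; they were read as RPKM made by the authors, because low values times model length fall near multiples of a constant step. Between 50.7% and 55.3% were whole within 0.1 read, so reads were not recovered, depth is an estimate, and no count test was run.

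From the deposited RPKM, log2(RPKM + 1) was computed, and the 13200 genes that reached RPKM 1 in 2 or more samples were tested. A difference on this scale understates the change of low genes. The model, from limma 3.58.1 (R 4.3.3), took in every sample with a trended variance, and p-values were adjusted over all genes for each comparison. The fit was tested on simulated data. The members, the gene lists and the tests were chosen with earlier results of these data known. Genes were named if among the 12 highest mean levels, the 6 largest called differences in each direction of a comparison, the 4 highest or lowest differences within a pair, the list of genes known for poly-A mRNA, or 5 or fewer sharing a property; counts of up to 10 are also named in full, and Hist1h2bp and the H1 genes with no shared window were chosen after their values were seen.

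Stem-loops, poly-A signals and shared 50-base windows come from GENCODE M21 transcripts (mm10, 1-based coordinates), which matched all 68 symbols. No value was imputed and no sample dropped except where stated. The labels' replicate numbers were not taken as pairs: deviations of same-numbered samples correlated between −0.055 and 0.214.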

Additional observations from a re-analysis of the deposited data

How the results depend on the processing

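The cause of each change below was not tested, except where fewer genes or samples entered. Of the counts of members, 94 stayed within 1.5 times the main value and 40 moved. For the named members, 701 values kept their direction and call, 90 kept the direction but lost the call, and 0 reversed. With a mean RPKM of at least 5, only 6 members were tested, and 0 were called in 3F+IL6 against 4F, 2 in 3F+IL6 against ES, 2 against MEF, 2 in 4F against ES, 4 against MEF and 4 in ES against MEF. In 3F+IL6 against 4F, 0 were also called by limma with a pseudocount of 5 (17 at an unadjusted p under 0.05), with no filter (14) and with the index as a covariate (6), and 3 when only the 4 libraries of the comparison entered. The index as a covariate gave 14 in 3F+IL6 against MEF and 10 in 4F against MEF, where the 4 samples alone gave 34. Leaving out each library in turn gave 0 to 7 in 3F+IL6 against 4F, 8 to 28 in 3F+IL6 against ES, 5 to 12 in 3F+IL6 against MEF, 6 to 33 in 4F against ES, 8 to 33 in 4F against MEF, and 10 to 32 in ES against MEF. Without ES 1 and MEF 1 the last gave 25.

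Members at least 1 log2 unit apart within a pair numbered 39 in ES, 10 in 3F+IL6, 8 in 4F and 16 in MEF. With a pseudocount of 5 they were 14, 1, 3 and 3. With a pseudocount of 0.1 they were 19 in 3F+IL6, 14 in 4F and 29 in MEF. With a mean RPKM of at least 5 they were 5, 3, 0 and 3. The direction of the ES and MEF differences was the same each time.

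With the replicate number as a block, 11 members were called in 4F against ES in place of 7, and the other counts stayed within 1.5 times; the numbers are not shown to pair the samples. Another scaling moved the median of all genes in comparisons with MEF from 0.25 to 0.27 log2 units to 0.15 to 0.18 (median centring) or 0.06 to 0.15 (quantile). Depth limits the low members most: RPKM 1 in a model of median length is under 10 reads.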

Other observations

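A few members were on and off between libraries that agreed in nearly all other genes. In ES 7 members were listed at 0 in library 1 and at 3 RPKM or more in library 2: Hist1h2bb, Hist1h2bg, Hist1h2bk, Hist1h2bl, Hist1h2bn, Hist1h3g and Hist1h4c. That is 21.2% of the 33 members at 3 or more in either library. Of all genes at 3 or more it was 0.253%, but these have no upper limit and are not matched for level. The highest member in ES was Hist1h3e, at 16.0 RPKM in ES 2. Hist1h2bg was at 0 RPKM in ES 1 and at 4.16 to 5.57 in all 7 other libraries, whatever their index.

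The clones held a case each that the index does not follow. Hist1h2bm was at 9.32 RPKM in 3F+IL6 clone 1 and 0 in clone 2, and at 2.75 to 18.6 in the other 6 libraries. Hist1h2bn was at 11.0 in 4F clone 1 and 0 in clone 2, while ES 2 held 3.02 and no other library more than 0.110. The 9 genes with such a gap in any group share 19.6% to 86.5% of their windows with other genes. These genes were chosen after their values were seen, and no test was made.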
